A study of Mus musculus with 6 samples.

Results

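The genes described here are 48 mouse genes of the unfolded protein response, the integrated stress response and the heat shock response. The list was set by what the genes are known to do and chosen with earlier results of these data known. Shares of the 48 beside those of all genes are therefore descriptions. The 48 are among the 55401 genes in the count files. All 48 passed the filter on low counts and were among the 18539 genes tested. By role, 14 are transcription factors and targets of the integrated stress response (ISR), 5 are sensors or their direct effectors, 17 encode chaperones and degradation factors of the endoplasmic reticulum (ER), 10 belong to the cytosolic heat shock response and 2 encode the mitochondrial chaperonin.

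The unfolded protein response is started by 3 proteins of the ER membrane, PERK (Eif2ak3), IRE1 (Ern1) and ATF6, which respond to unfolded protein in the ER lumen. PERK, like the amino acid sensor GCN2 (Eif2ak4), phosphorylates the initiation factor eIF2α, which slows translation in general while the mRNA of ATF4 is translated better, and ATF4 then drives genes of amino acid and one-carbon metabolism. IRE1 splices the mRNA of Xbp1, and the protein made from the spliced form, together with the cleaved form of ATF6, drives ER chaperone genes. HSF1 does the same for chaperones of the cytosol. Most of these steps act on proteins or on splicing, and the counts of reads per gene used here measure neither.

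Bulk RNA-Seq of poly(A)-selected RNA was analysed in 6 libraries of NIH3T3 cells, an immortalized line of mouse embryonic fibroblasts. Empty vector cells with DMSO as vehicle gave 2 libraries (EV). Cells stably expressing the fusion TAZ-CAMTA1, with DMSO, gave 1 library (TC), and the same cells with 10 μM aurintricarboxylic acid (ATA) gave 3 libraries (TC + ATA). TAZ-CAMTA1 joins the transcriptional coactivator TAZ to CAMTA1 and occurs in epithelioid hemangioendothelioma, and ATA came from the study's screen for compounds that disturb the binding of TAZ to TEAD. Treatment lasted 48 h and began 16 h after seeding, ATA was not given to empty vector cells, and nothing in the labels says that libraries of a group came from separate cultures. P-values therefore measure the spread between these libraries, which may be technical.

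The libraries held between 58471484 and 74413193 counts. Fibroblast markers summed to between 14308 and 19220 CPM (counts divided by the TMM-adjusted size of the library), with 9 of 10 at 1 CPM or more in every library. The summed markers of epithelium, endothelium, blood and adipocytes reached at most 9.48 CPM in any library, and those of muscle ran from 27.0 to 43.0 CPM. The EV libraries differed more from each other than the TC + ATA libraries did, with a chi-square statistic per degree of freedom over all genes of 61.3 against 5.86 to 6.61. Among the 48 genes the ratio of EV 1 to EV 2 ran from 0.785 for Eif2ak4 to 1.33 for Hspe1, and 34 of the 48 were higher in EV 1. In bulk RNA a lower level cannot be told apart from fewer cells that express the gene.

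The first comparison, TC with EV, sets cells with the fusion against cells without it. Any other difference between the EV and TC cells cannot be told apart from the fusion. Of the 48 genes, 19 (39.6%) were higher in TC and 4 (8.33%) were lower at an adjusted p of at most 0.05, in a test in which 14.8% of all genes were called higher and 13.2% lower. The share over all genes depended on the filter on low counts, also where it is set beside groups of genes and further lists below. With only genes of at least 5 CPM in 1 library tested, 4713 of 10887 genes were called in either direction. In that setting, in which Hspa1a was too low to be tested, 21 of the 48 were called higher and 4 lower. The median log2 fold change of the 48 was 0.20, and the median over all genes tested was −0.03. None of the 48 reached the absolute log2 fold change of 2 that the study also asked for, a limit that 3.64% of all genes passed together with the adjusted p. The largest changes were those of Chac1, Hsp90aa1 and Ppp1r15a. All p-values come from edgeR's quasi-likelihood test of the 6 libraries together, adjusted by the Benjamini-Hochberg method over all genes tested. The TC library has no replicate, so that in every comparison the spread was that within EV and within TC + ATA, with 3 residual degrees of freedom. The test also draws on the spread of all genes, which adds degrees of freedom to its p-values and intervals.

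In the second comparison, TC + ATA with EV, 22 of the 48 genes (45.8%) were higher and 5 (10.4%) were lower, where 18.0% of all genes were called higher and 18.6% lower. With only genes of at least 5 CPM in 1 library tested, 5650 of 10887 genes were called in either direction. Of the 48, again with Hspa1a not tested, 24 were then called higher and 5 lower. For 28 of the 48 genes all 3 TC + ATA libraries exceeded EV 1 and EV 2, and for 6 genes all 3 were under them, and over all genes tested these shares were 28.7% and 30.1%. Between the first and the second comparison, which share the EV libraries, 17 genes were called higher in both, 3 were called lower in both and none was called in opposite directions. Of the 27 calls in TC + ATA vs EV, 19 held under all 14 alternative analyses (other tools, scalings, filters and libraries left out), and those of Aldh18a1, Atf6, Ddit4, Hsf1, Hspb1, Mthfd2, Sel1l and Vldlr were lost under at least 1.

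The third comparison, TC + ATA with TC, addresses what ATA changes in cells with the fusion. None of the 48 genes was called in either direction, the smallest adjusted p being 0.243, while 0.426% of all genes were called higher and 0.156% lower. An unadjusted p below 0.05 was reached by 12 of the 48 genes and by 9.61% of all genes. DESeq2 on all 6 libraries also called none of the 48.

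**Figure D1:**
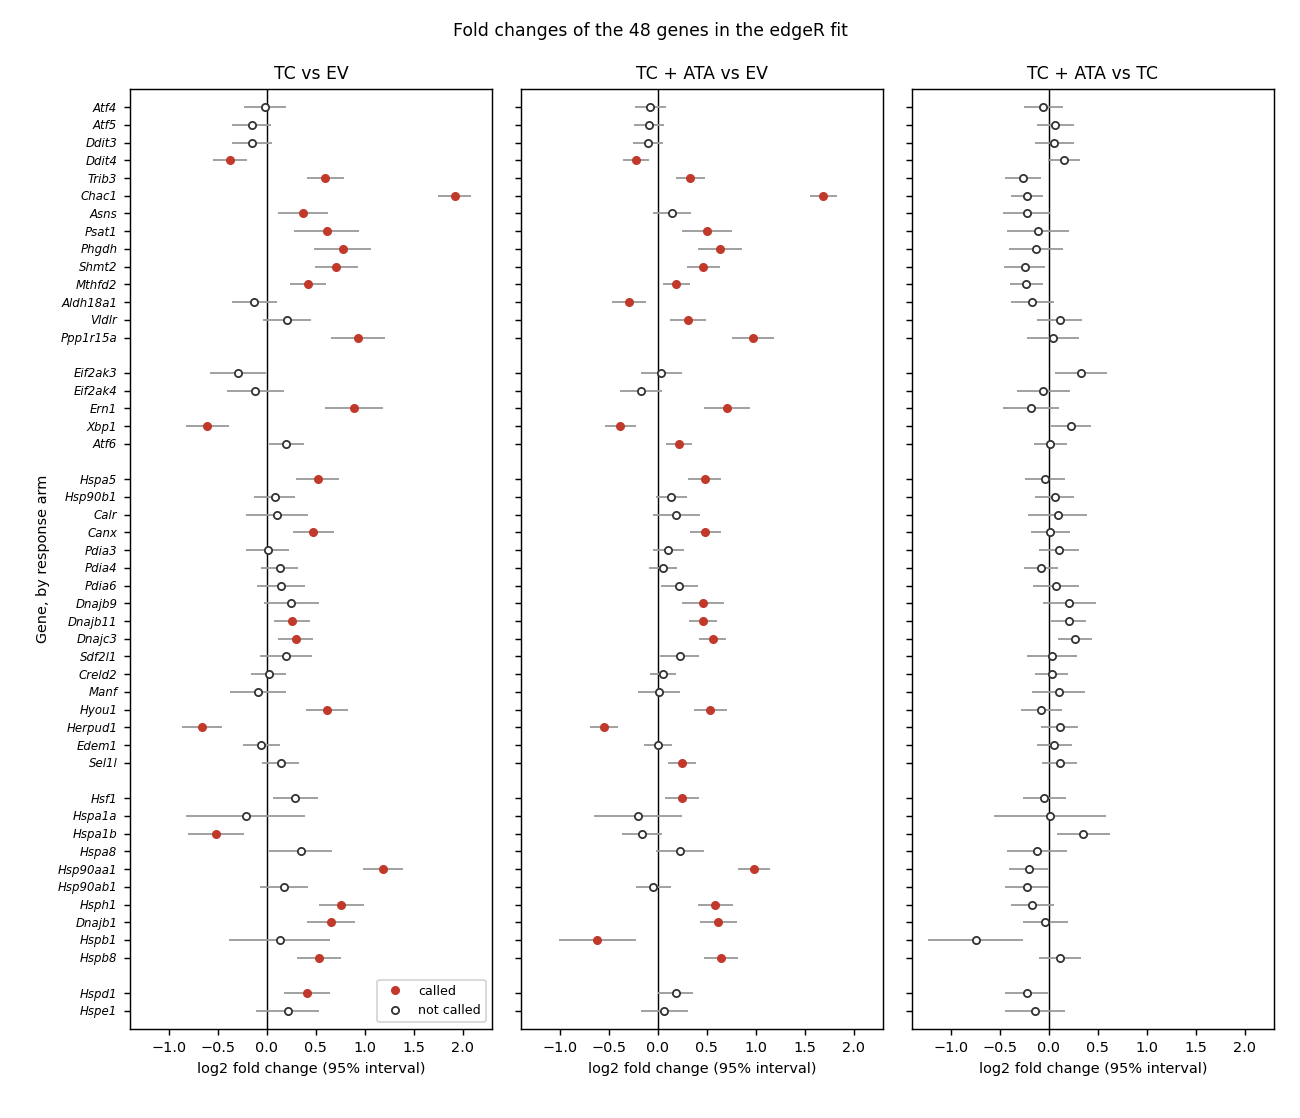
Log2 fold changes of the 48 genes in the 3 comparisons, with 95% intervals as grey lines, grouped from top to bottom as ISR, sensors, ER, heat shock and mitochondrial genes. Filled red points passed an adjusted p of 0.05 in edgeR. In TC vs EV 19 filled points lie right of 0 and 4 left of it, in TC + ATA vs EV 22 and 5, and in TC + ATA vs TC there are none.

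The levels of the genes differed widely. Counted per kilobase of exon, so that genes of unequal length can be compared, the cytosolic chaperone Hsp90ab1 had the highest level in EV, at 1608 and 1498 CPM per kb in the libraries. The ER lumen chaperone Calr followed at 492 and 385 CPM per kb. At the other end, the inducible chaperone Hspa1a stood at 0.847 and 0.915 CPM per kb in the EV libraries, and its lowest raw count in any library was 136. The sensors and effectors had EV levels from 1.94 CPM per kb in the lower EV library of Ern1 to 45.8 CPM per kb in the higher one of Xbp1.

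**Figure D2:**
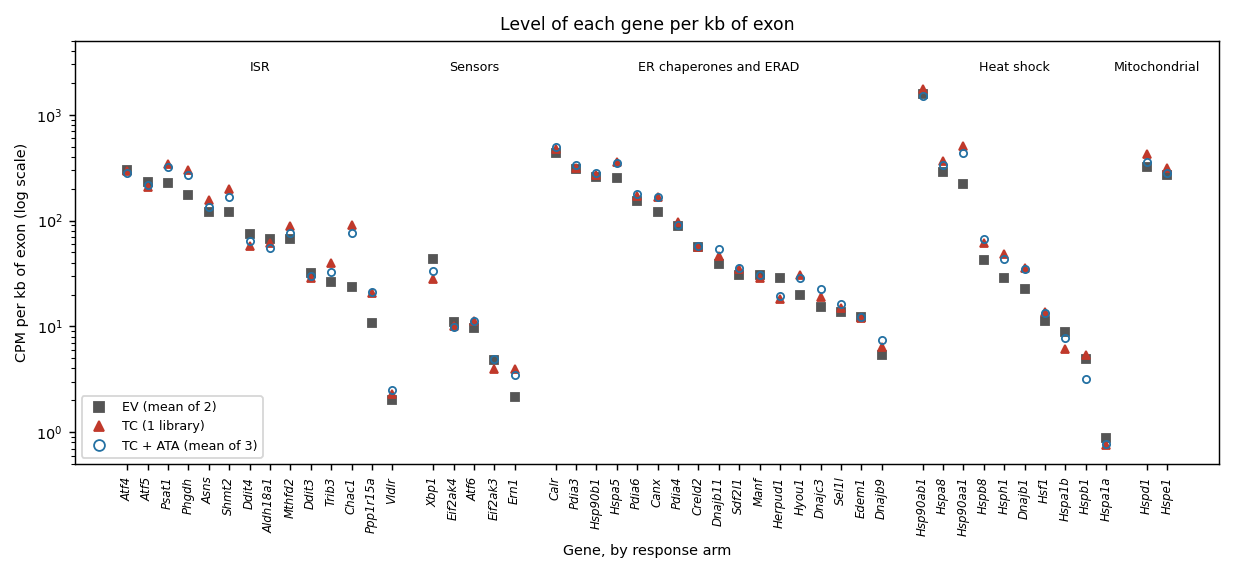
Level of each of the 48 genes in CPM per kb of exon on a log scale, by group of genes and, within a group, from the highest to the lowest EV level. Grey squares are the mean of 2 EV libraries, red triangles the TC library and open blue circles the mean of 3 TC + ATA libraries. Hsp90ab1 is the highest and Hspa1a the lowest, and the symbols of Chac1 and Hsp90aa1 are visibly apart.

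In the ISR group the mRNAs of the factors themselves did not pass the test, whereas most of the target genes did. Of the 14 genes, 8 (57.1%) rose and 1 (7.14%) fell in TC against EV, beside 14.8% and 13.2% of all genes. The median log2 fold change was 0.39. Atf4 (chromosome 15, 80255184 to 80257541), the central factor of the response, had 678 and 729 CPM in EV, 693 CPM in TC and 645, 672 and 683 CPM in TC + ATA. Its TC value lay between the EV values, and its log2 fold change was −0.02 (95% interval −0.24 to 0.19, adjusted p = 0.895). Ddit3, which encodes CHOP, the factor associated with cell death in lasting ER stress, had 52.0 and 58.3 CPM in EV, 49.6 CPM in TC and 52.3, 51.4 and 51.0 CPM in TC + ATA. With a log2 fold change of −0.15 (95% interval −0.36 to 0.05, adjusted p = 0.259) it did not pass, and all of its values fell within a narrow range. Atf5, a relative of Atf4 whose mRNA is under the same translational control, was not called in any comparison of the main edgeR fit. It had 474 and 445 CPM in EV, 412 CPM in TC and 438, 434 and 421 CPM in TC + ATA. Every library with the fusion thus lay below both EV libraries. Among the 14 alternatives, Atf5 was called lower in TC vs EV under 3 and in TC + ATA vs EV under 2. On the opposite strand Ddit3 overlaps other genes over 81 bases and Atf5 over 164, and the sources used here do not state whether reads were counted by strand. Ddit3 also shares 105 bases on its own strand with a second annotated record of the same name. Only the longer record is described here.

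Chac1 (chromosome 2, 119351229 to 119354381), which encodes an enzyme that breaks down glutathione and is a known target of ATF4, had the largest change of the 48 genes. Its level was 38.7 and 39.2 CPM in EV, 147 CPM in TC and 124, 129 and 124 CPM in TC + ATA. The TC level was 3.78-fold that of EV, a log2 fold change of 1.92 (SE 0.075, adjusted p = 7.24e-07), and for TC + ATA the log2 fold change over EV was 1.69 (SE 0.062, adjusted p = 1.99e-07). Every library with the fusion stood above every EV library, and the TC + ATA values lay below that of TC. Ppp1r15a (GADD34), which recruits the phosphatase that restores eIF2α, had 30.1 and 33.3 CPM in EV, 60.4 CPM in TC and 55.8, 62.2 and 68.5 CPM in TC + ATA. Its log2 fold change was 0.93 in TC (SE 0.12, adjusted p = 0.000488) and 0.97 in TC + ATA (SE 0.095, adjusted p = 5.95e-05), and the TC + ATA libraries lay on both sides of the TC library. Trib3, a pseudokinase that binds ATF4 and CHOP, had 55.6 and 54.9 CPM in EV, 83.7 CPM in TC and 65.5, 71.9 and 71.3 CPM in TC + ATA. The groups did not overlap, TC being highest, with log2 fold changes over EV of 0.60 in TC (SE 0.085, adjusted p = 0.000844) and 0.33 in TC + ATA (SE 0.065, adjusted p = 0.00378).

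All 4 genes of serine and one-carbon metabolism among the 48 were called higher in TC. Phgdh (chromosome 3, 98313170 to 98339990), the first enzyme of serine synthesis from glycolysis, had 483 and 382 CPM in EV, 739 CPM in TC and 679, 671 and 667 CPM in TC + ATA. Psat1, the next enzyme of that pathway, had 1095 and 826 CPM in EV, 1467 CPM in TC and 1389, 1347 and 1344 CPM in TC + ATA. The log2 fold changes over EV were 0.77 (SE 0.127, adjusted p = 0.00197) for Phgdh and 0.61 (SE 0.146, adjusted p = 0.0135) for Psat1 in TC. In TC + ATA they were 0.64 (SE 0.099, adjusted p = 0.001) and 0.50 (SE 0.113, adjusted p = 0.00761). For both genes EV 1 was the higher EV library and every library with the fusion lay above it. Shmt2, the mitochondrial enzyme that takes a one-carbon unit from serine, had 397 and 352 CPM in EV, 613 CPM in TC and 527, 509 and 511 CPM in TC + ATA. Mthfd2, which acts on that unit in the mitochondrion, had 238 and 228 CPM in EV, 311 CPM in TC and 269, 261 and 265 CPM in TC + ATA. Shmt2 rose by a log2 fold change of 0.71 in TC (SE 0.096, adjusted p = 0.000655) and Mthfd2 by 0.42 (SE 0.080, adjusted p = 0.00424). Both genes had their highest value in TC and their lowest values in EV, with TC + ATA between. Other genes of these pathways did not all go this way. Aldh1l2, a mitochondrial one-carbon enzyme outside the 48 that was chosen after its values were seen, had 212 and 230 CPM in EV and 154 CPM in TC, a log2 fold change of −0.52 (SE 0.091, adjusted p = 0.00279). That call was lost in edgeR with the EV and TC libraries alone (adjusted p = 0.051).

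Asns, asparagine synthetase, is another known ATF4 target, and it had 363 and 300 CPM in EV, 429 CPM in TC and 370, 363 and 365 CPM in TC + ATA. It was called higher in TC at a log2 fold change of 0.37 (SE 0.113, adjusted p = 0.038) and not in TC + ATA, at 0.14 (SE 0.085, adjusted p = 0.232). The TC + ATA libraries overlapped with EV 1. Ddit4 (REDD1), an inhibitor of mTORC1 signalling, went the other way, with 132 and 130 CPM in EV, 101 CPM in TC and 110, 111 and 115 CPM in TC + ATA. It fell in TC at a log2 fold change of −0.38 (SE 0.078, adjusted p = 0.00655) and in TC + ATA at −0.23 (SE 0.057, adjusted p = 0.0135), and no library with the fusion reached an EV value. The remaining 2 genes of the group were called in TC + ATA alone, where Aldh18a1, of proline synthesis, was lower than in EV at −0.30 (SE 0.076, adjusted p = 0.0139) and the lipoprotein receptor Vldlr higher at 0.31 (SE 0.081, adjusted p = 0.0158). The calls of Asns, Psat1, Mthfd2 and Ddit4 in TC vs EV were lost under at least 1 of the 14 alternative analyses, whereas those of Chac1, Ppp1r15a, Trib3, Phgdh and Shmt2 held under all 14.

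**Figure D3:**
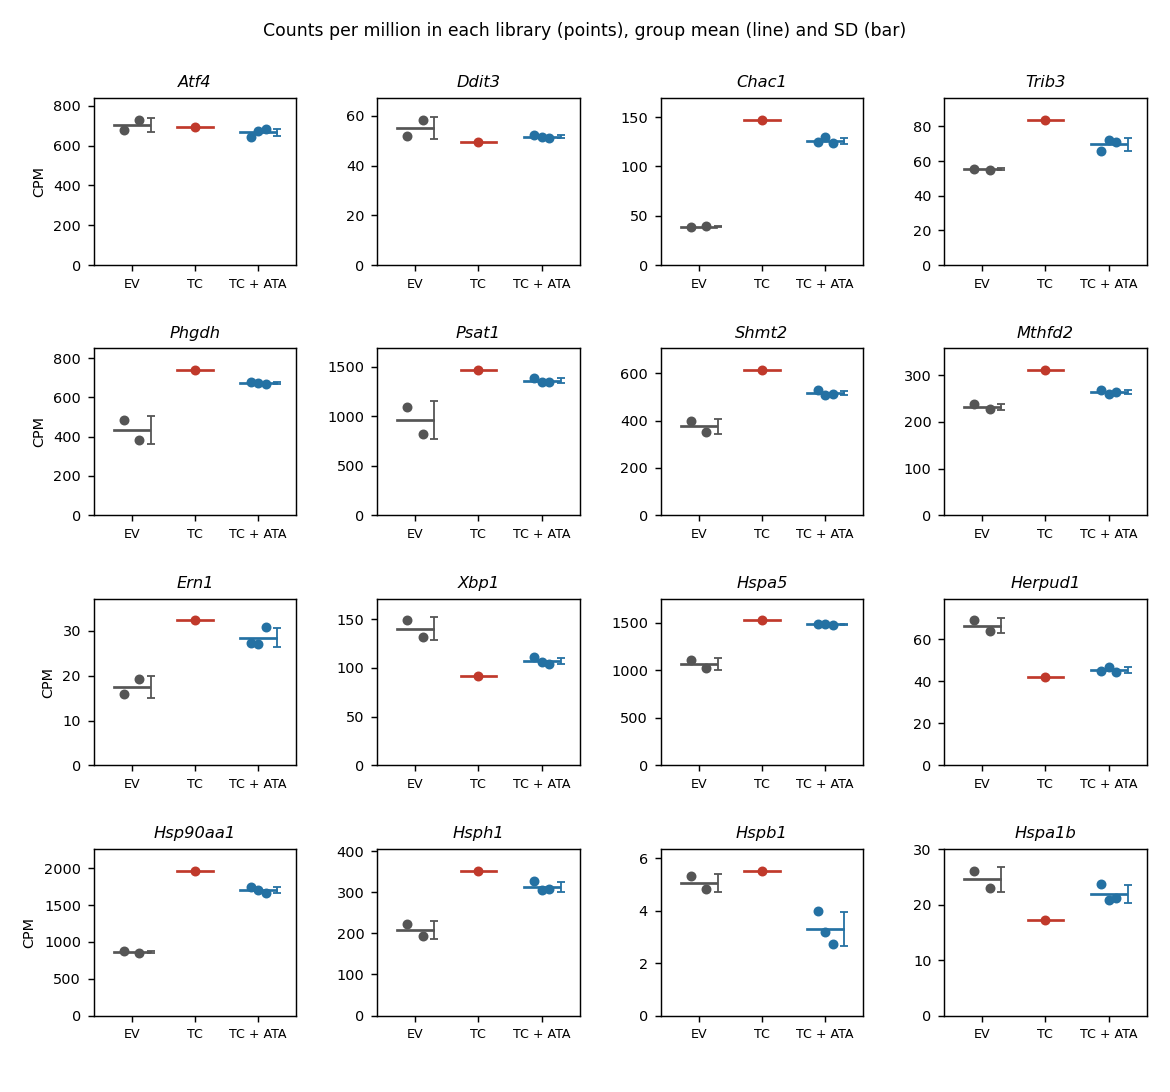
CPM of 16 of the genes in each library on linear axes from 0, with grey points for EV (n = 2), red for TC (n = 1) and blue for TC + ATA (n = 3), a line at the group mean and a bar of 1 SD beside groups with replicates. Atf4 and Ddit3 are level across groups, Chac1, Ern1 and Hsp90aa1 are higher in every library with the fusion, and Xbp1 and Herpud1 are lower in every one.

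The letters of the promoters were read next, since ATF4 binds, with partners, to short elements known as C/EBP-ATF response elements. RefSeq windows from 250 bases before to 50 after the start (GRCm38.p6) were given for 41 of the 48 genes. The element, searched on both strands as TGATGCAA or TGATGNAAT, occurred in 1.67% of 32851 promoters and in those of 3 of the 41 genes, Chac1, Vldlr and Herpud1. The 2 sites in ISR genes are shown with the element in capitals, each read 5′ to 3′ on the minus strand.
Chac1 (chr2:119351038-119351067, minus strand): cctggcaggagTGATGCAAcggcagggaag
Vldlr (chr19:27216809-27216838, minus strand): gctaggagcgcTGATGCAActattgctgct
In Chac1, the gene with the largest change, the element lies 193 to 186 bases before the start. The Vldlr stretch lies within an exon of Vldlr in GENCODE M21, which places the start of that gene further upstream than RefSeq. No match in a window says only that these letters are not in it.

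Outside the 48, 31 further genes of the ISR were tested from a list that was also chosen with results of these data known. In TC vs EV 14 of them (45.2%) rose and 4 (12.9%) fell, against 14.8% and 13.2% of all genes, with a median log2 fold change of 0.25. The largest was that of Cth, cystathionine gamma-lyase, which makes cysteine, with 9.37 and 9.22 CPM in EV, 78.6 CPM in TC and 58.5, 60.8 and 61.6 CPM in TC + ATA (log2 fold change 3.08 in TC, SE 0.081, adjusted p = 1.17e-07). Gdf15, a secreted stress cytokine, followed at 1.85 (SE 0.348, adjusted p = 0.00399) from levels that reached 1.83 CPM at most, and Atf3, a stress-inducible factor, at 1.76 (SE 0.223, adjusted p = 0.000418). DESeq2 on the EV and TC libraries alone did not call Gdf15 (adjusted p = 0.0636). Of 12 genes for aminoacyl-tRNA synthetases, which ATF4 is known to drive in part, 8 rose in TC against EV and none fell. Wars1 had the largest log2 fold change of these, 0.83 (SE 0.090, adjusted p = 0.000162).

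Among the 5 sensors and effectors, Ern1 rose and Xbp1 fell in TC, and the others did not pass the test. Ern1 (chromosome 11, 106394650 to 106487852), which encodes IRE1, had 15.8 and 19.1 CPM in EV, 32.3 CPM in TC and 27.4, 27.1 and 30.9 CPM in TC + ATA. Its log2 fold change over EV was 0.89 in TC (SE 0.132, adjusted p = 0.00109) and 0.70 in TC + ATA (SE 0.103, adjusted p = 0.000701). Xbp1 (chromosome 11, 5520659 to 5525893), whose mRNA IRE1 splices, had 149 and 132 CPM in EV, 91.9 CPM in TC and 111, 106 and 104 CPM in TC + ATA. Its log2 fold change was −0.61 in TC (SE 0.096, adjusted p = 0.00155) and −0.39 in TC + ATA (SE 0.069, adjusted p = 0.00227). The enzyme gene thus stood higher in every library with the fusion and its substrate gene lower in every one, and both calls held under all 14 alternatives.

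Eif2ak3, which encodes PERK, had 27.4 and 30.5 CPM in EV, 23.6 CPM in TC and 32.4, 29.4 and 27.2 CPM in TC + ATA. It was lowest in TC, with a log2 fold change of −0.30 (95% interval −0.58 to −0.01, adjusted p = 0.116), and the EV and TC + ATA values overlapped. Of its 6026 exonic bases, 485 are shared with Gm43292, annotated on the other strand. Eif2ak4, which encodes GCN2, had 72.4 and 92.3 CPM in EV, 75.8 CPM in TC and 74.8, 71.6 and 72.3 CPM in TC + ATA, and the EV libraries were further apart than the libraries with the fusion were from each other. Its log2 fold change in TC was −0.12 (95% interval −0.41 to 0.17, adjusted p = 0.546). Atf6 had 87.6 and 92.0 CPM in EV, 103 CPM in TC and 104, 105 and 103 CPM in TC + ATA. Both groups with the fusion lay above EV by about the same amount, at a log2 fold change of 0.20 in TC (SE 0.077, adjusted p = 0.088), which was not called, and of 0.22 in TC + ATA (SE 0.058, adjusted p = 0.018), which was.

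In the ER group 5 of 17 genes (29.4%) rose and 1 (5.88%) fell in TC against EV, beside 14.8% and 13.2% of all genes. Among genes of at least 5 CPM in 1 library, 4713 of 10887 were called in either direction. The ER group is therefore not shown to stand out from expressed genes. The median log2 fold change was 0.14. Hspa5 (chromosome 2, 34771970 to 34777547), which encodes BiP, the main ER chaperone and the usual marker of the response, had 1109 and 1019 CPM in EV, 1524 CPM in TC and 1489, 1484 and 1476 CPM in TC + ATA. It rose by a log2 fold change of 0.52 in TC (SE 0.096, adjusted p = 0.00364) and 0.48 in TC + ATA (SE 0.074, adjusted p = 0.000943). Hyou1, the exchange factor of BiP, had 149 and 138 CPM in EV, 219 CPM in TC and 218, 211 and 193 CPM in TC + ATA, and its log2 fold change was 0.61 in TC (SE 0.096, adjusted p = 0.00148). Canx, the membrane lectin that folds glycoproteins, had 570 and 553 CPM in EV, 778 CPM in TC and 817, 787 and 751 CPM in TC + ATA, for a log2 fold change of 0.47 in TC (SE 0.092, adjusted p = 0.00495). For these 3 genes every library with the fusion lay above both EV libraries.

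A pair of J-domain cochaperones of BiP had their highest values in TC + ATA. Dnajc3 (p58IPK) had 76.8 and 80.3 CPM in EV, 96.4 CPM in TC and 115, 119 and 113 CPM in TC + ATA. Dnajb11 (ERdj3) had 128 and 125 CPM in EV, 151 CPM in TC and 176, 179 and 165 CPM in TC + ATA. For both genes the groups did not overlap and their order was EV, TC, TC + ATA. The log2 fold changes in TC were 0.29 for Dnajc3 (SE 0.079, adjusted p = 0.0225) and 0.26 for Dnajb11 (SE 0.083, adjusted p = 0.0485), and in TC + ATA over EV they were 0.56 (SE 0.060, adjusted p = 0.00011) and 0.46 (SE 0.063, adjusted p = 0.000497). A related cochaperone, Dnajb9 (ERdj4), was called in TC + ATA alone, at 0.46 over EV (SE 0.095, adjusted p = 0.00495), as was Sel1l, of the ER-associated degradation (ERAD) complex, at 0.25 (SE 0.063, adjusted p = 0.0137). The same order of the groups without overlap was also found in the ER group for Dnajb9, Sel1l, Pdia6 and Hsp90b1. Outside the ER group it was found for Vldlr, Atf6 and Hspb8. Over all genes tested, TC + ATA lay above both EV libraries for 28.7% and above TC for 30.5%. The share with the full order was not counted.

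Herpud1 (chromosome 8, 94386438 to 94395377), a membrane component of ERAD, was the ER gene that fell. Its level was 69.0 and 63.9 CPM in EV, 42.0 CPM in TC and 44.7, 46.8 and 44.5 CPM in TC + ATA. The log2 fold change over EV was −0.66 in TC (SE 0.089, adjusted p = 0.000615) and −0.55 in TC + ATA (SE 0.064, adjusted p = 0.000174), with no overlap between EV and the libraries with the fusion. The remaining 9 genes (Hsp90b1, Calr, Pdia3, Pdia4, Pdia6, Sdf2l1, Creld2, Manf and Edem1), which encode folding enzymes, lectins, secreted stress factors and an ERAD mannosidase-like protein, were called in none of the 3 comparisons in the main edgeR fit. Among the alternatives, Pdia6 was called higher in TC + ATA vs EV under 7 of 14 and Pdia3 higher in TC + ATA vs TC under 3 of 14, Sdf2l1 higher in TC + ATA vs EV under 2, and the others under at most 1 in a comparison. In TC vs EV the calls of Dnajb11 and Dnajc3 were lost under 8 and 7 of the 14 alternatives, with adjusted p-values up to 0.411 and 0.339, and those of Canx and Hspa5 under 3 and 2, with adjusted p-values up to 0.183 and 0.207. Those of Hyou1 and Herpud1 held under all 14, and in TC + ATA vs EV so did those of all 6 of these genes and of Dnajb9.

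Promoter letters were read for this group as well. The ER stress response element, CCAAT and CCACG separated by 9 bases of any kind, is bound by NF-Y and the cleaved form of ATF6 and was searched on both strands. It occurred in 0.119% of 32851 promoters and in those of 7 of the 41 genes, all in the ER group. Those of the 3 that rose in TC and of 3 that did not pass are shown, with the element in capitals.
Hspa5 (chr2:34772020-34772048, plus strand): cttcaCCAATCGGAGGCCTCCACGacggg
Canx (chr11:50325795-50325823, minus strand): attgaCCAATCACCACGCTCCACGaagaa
Dnajc3 (chr14:118937822-118937850, plus strand): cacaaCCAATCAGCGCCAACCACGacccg
Calr (chr8:84847070-84847098, plus strand): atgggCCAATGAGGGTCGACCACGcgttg
Creld2 (chr15:88819515-88819543, minus strand): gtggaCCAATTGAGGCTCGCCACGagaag
Pdia6 (chr12:17266486-17266514, plus strand): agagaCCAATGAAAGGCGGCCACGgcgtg
The remaining gene, Hsp90b1, held the element at 2 places. The Hspa5 stretch lies before the RefSeq start but within an exon of Hspa5 in GENCODE M21, the source of the gene positions given here. Genes with the element were thus found among those called higher in TC and among those not called. The related element ERSE-II, ATTGG and CCACG separated by 1 base, occurred in 0.0365% of promoters and in those of Dnajb11, after the start, and of Herpud1, the gene that fell, 52 to 42 bases before the start.
Herpud1 (chr8:94386368-94386396, plus strand): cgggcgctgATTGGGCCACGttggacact

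A further list outside the 48 held 49 genes, mainly of the ER and ERAD. Of these, 13 (26.5%) rose and 6 (12.2%) fell in TC against EV, where 14.8% and 13.2% of all genes did. The median log2 fold change was 0.10 in this list. The limit given for the ER group holds here too. Ero1a, the oxidase that recharges disulfide isomerases, had the largest change, with 57.9 and 54.5 CPM in EV, 198 CPM in TC and 179, 187 and 188 CPM in TC + ATA (log2 fold change 1.82, SE 0.079, adjusted p = 1.07e-06). Txnip, listed here although it encodes an arrestin-like protein that binds thioredoxin and not an ER component, fell by 1.42 on the log2 scale (SE 0.087, adjusted p = 5.46e-06). Txnip was the one gene of these further lists that was called in TC + ATA vs TC. It had 62.1 and 63.4 CPM in EV, 23.4 CPM in TC and 38.9, 37.8 and 39.0 CPM in TC + ATA. The log2 fold change of TC + ATA over TC was 0.72 (SE 0.081, adjusted p = 0.00759), and this call was lost when any TC + ATA library was left out, at adjusted p-values from 0.0523 to 0.0815 in edgeR.

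In the heat shock group 4 of 10 genes (40%) rose and 1 (10%) fell in TC against EV, beside 14.8% and 13.2% of all genes. The median log2 fold change was 0.32. Hsp90aa1 (chromosome 12, 110690605 to 110702728), the inducible form of the cytosolic chaperone HSP90, had 876 and 855 CPM in EV, 1970 CPM in TC and 1747, 1703 and 1669 CPM in TC + ATA. Its log2 fold change over EV was 1.19 in TC (SE 0.091, adjusted p = 2.06e-05) and 0.98 in TC + ATA (SE 0.072, adjusted p = 1.03e-05), and all libraries with the fusion stood far above EV. The constitutive form, Hsp90ab1, had 4823 and 4494 CPM in EV, 5261 CPM in TC and 4648, 4488 and 4389 CPM in TC + ATA and was not called. Hsph1 (HSP110), the exchange factor of cytosolic HSP70, had 224 and 193 CPM in EV, 353 CPM in TC and 327, 306 and 308 CPM in TC + ATA. Dnajb1 (HSP40), a cochaperone of HSP70, had 78.8 and 65.5 CPM in EV, 113 CPM in TC and 111, 113 and 108 CPM in TC + ATA. The log2 fold changes in TC were 0.76 for Hsph1 (SE 0.102, adjusted p = 0.000612) and 0.65 for Dnajb1 (SE 0.107, adjusted p = 0.00189), without overlap with EV.

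Hspb8, a small heat shock protein of selective autophagy, had 89.3 and 76.7 CPM in EV, 120 CPM in TC and 133, 129 and 127 CPM in TC + ATA. It was called higher than EV in TC at a log2 fold change of 0.53 (SE 0.098, adjusted p = 0.0036) and in TC + ATA at 0.64 (SE 0.076, adjusted p = 0.000196). Hspb1 (HSP25), another small heat shock protein, was expressed at a low level of 5.31 and 4.81 CPM in EV, 5.53 CPM in TC and 3.99, 3.19 and 2.72 CPM in TC + ATA. It was not called in TC and was lower than EV in TC + ATA at −0.62 (SE 0.173, adjusted p = 0.0208), its lowest raw count being 189. The libraries of TC + ATA all lay below those of the other groups for this gene.

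Of the stress-inducible HSP70 genes, Hspa1b fell in TC and Hspa1a was not called. Hspa1b had 26.1 and 23.0 CPM in EV, 17.1 CPM in TC and 23.6, 20.8 and 21.2 CPM in TC + ATA, with a log2 fold change of −0.52 in TC (SE 0.125, adjusted p = 0.0137). Its neighbour Hspa1a had between 1.92 and 2.71 CPM in all libraries. The reading frames of the 2 genes, of 1926 bases in Hspa1a and 1929 in Hspa1b, are 99.6% identical outside a gap of 3 bases, so that the division of reads between them is uncertain. Hspa8, the constitutive HSP70, had 1395 and 1071 CPM in EV, 1568 CPM in TC and 1458, 1431 and 1443 CPM in TC + ATA and was not called, with EV 1 at 1.30 times EV 2. Hsf1, the factor that drives the response, had 73.4 and 86.0 CPM in EV, 97.4 CPM in TC and 95.3, 91.7 and 95.8 CPM in TC + ATA. It did not pass in TC, at a log2 fold change of 0.29 (SE 0.101, adjusted p = 0.0626), and passed in TC + ATA at 0.24 (SE 0.077, adjusted p = 0.0354). In TC vs EV the calls of Hsp90aa1, Hsph1, Dnajb1 and Hspb8 held under all 14 alternatives and that of Hspa1b was lost under 1, while Hsf1 and Hspa8 were each called higher under 4 of the 14.

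Of 43 further genes of cytosolic folding, collagen folding and crystallin families outside the 48, 18 (41.9%) rose and 4 (9.3%) fell in TC against EV, beside 14.8% and 13.2% of all genes. Cryab, αB-crystallin, had the largest change, from 83.5 and 64.5 CPM in EV to 510 CPM in TC and 597, 582 and 579 CPM in TC + ATA (log2 fold change 2.78 in TC, SE 0.131, adjusted p = 1.37e-06). Among the called genes, Hspa4l, a relative of Hsph1, was next at 0.86 (SE 0.082, adjusted p = 7.41e-05), followed by Serpinh1 (HSP47), the collagen chaperone of the ER, at 0.71 (SE 0.102, adjusted p = 0.000902). The call of Serpinh1 was lost in edgeR with the EV and TC libraries alone (adjusted p = 0.0631).

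The chaperonin of the mitochondrial matrix is built from HSP60 and HSP10. Hspd1, which encodes HSP60, had 896 and 783 CPM in EV, 1117 CPM in TC and 959, 952 and 950 CPM in TC + ATA. It was called higher in TC at a log2 fold change of 0.41 (SE 0.103, adjusted p = 0.0167), a call that was lost under 6 of the 14 alternatives, and not called in TC + ATA at 0.18 (SE 0.078, adjusted p = 0.101). Hspe1, which encodes HSP10, had 456 and 343 CPM in EV, 462 CPM in TC and 417, 420 and 418 CPM in TC + ATA and was not called. The genes lie head to head on chromosome 1 and overlap by 112 bases on opposite strands. A heat shock element, searched as 3 alternating GAA and TTC units each set apart by 2 bases of any kind, occurred in 0.603% of promoters and in those of Hspd1, Hspe1 and, after the start, Hsph1. The stretch between the RefSeq start sites, shown because both genes have it in their windows, holds the element within an array of the same units in capitals. In GENCODE M21 this stretch lies within an exon of Hspd1.
Hspd1 and Hspe1 (chr1:55088053-55088082, plus strand): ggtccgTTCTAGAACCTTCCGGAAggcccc
Among 12 further mitochondrial chaperone and protease genes 3 (25%) rose and 2 (16.7%) fell in TC against EV, beside 14.8% and 13.2% of all genes. The limit given for the ER group holds for these shares too. The matrix protease Lonp1 had the largest log2 fold change of these, 0.85 (SE 0.089, adjusted p = 0.000126).

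Although the third comparison called none of the 48 genes, the TC + ATA libraries often lay on 1 side of the TC library. All 3 were above it for 20 genes and below it for 23, shares that were 30.5% and 32.7% over all genes tested. By group, they were above for 11 and below for 3 of the 17 ER genes, above for 4 and below for 9 of the 14 ISR genes, above for 2 and below for 7 of the 10 heat shock genes, and below for both mitochondrial genes. The median log2 fold change was 0.07 for the ER group, −0.12 for the ISR group and −0.08 for the heat shock group, and 0.00 over all genes. The TC library belongs to both the first and the third comparison, in opposite roles, so that these are not independent of each other.

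The outcome of that comparison depended on the libraries in the fit. With the TC and TC + ATA libraries alone, so that the spread came from the 3 TC + ATA libraries only, edgeR called 6 of the 48 genes higher and 14 lower in TC + ATA than in TC, where 4.42% of all genes were called higher and 3.52% lower. In that fit Trib3, Chac1, Asns, Phgdh, Shmt2, Mthfd2 and Aldh18a1 of the ISR group were lower, with log2 fold changes from −0.25 for Trib3 to −0.12 for Phgdh. Hspa8, Hsp90aa1, Hsp90ab1, Hsph1 and Hspb1 of the heat shock group and both mitochondrial genes were lower too, at −0.74 for Hspb1 (adjusted p = 0.0463) and from −0.22 to −0.11 for the others. Eif2ak3, Xbp1, Pdia3, Dnajb11, Dnajc3 and Hspa1b were higher, at 0.34, 0.23, 0.11, 0.21, 0.28 and 0.36. DESeq2 on the same 4 libraries also called 6 genes higher and 14 lower, and 19 calls were shared with the same direction. The coefficient of variation of the 48 genes over the TC + ATA libraries had a median of 2.54%, and the single TC library allows no estimate of its own spread.

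**Figure D4:**
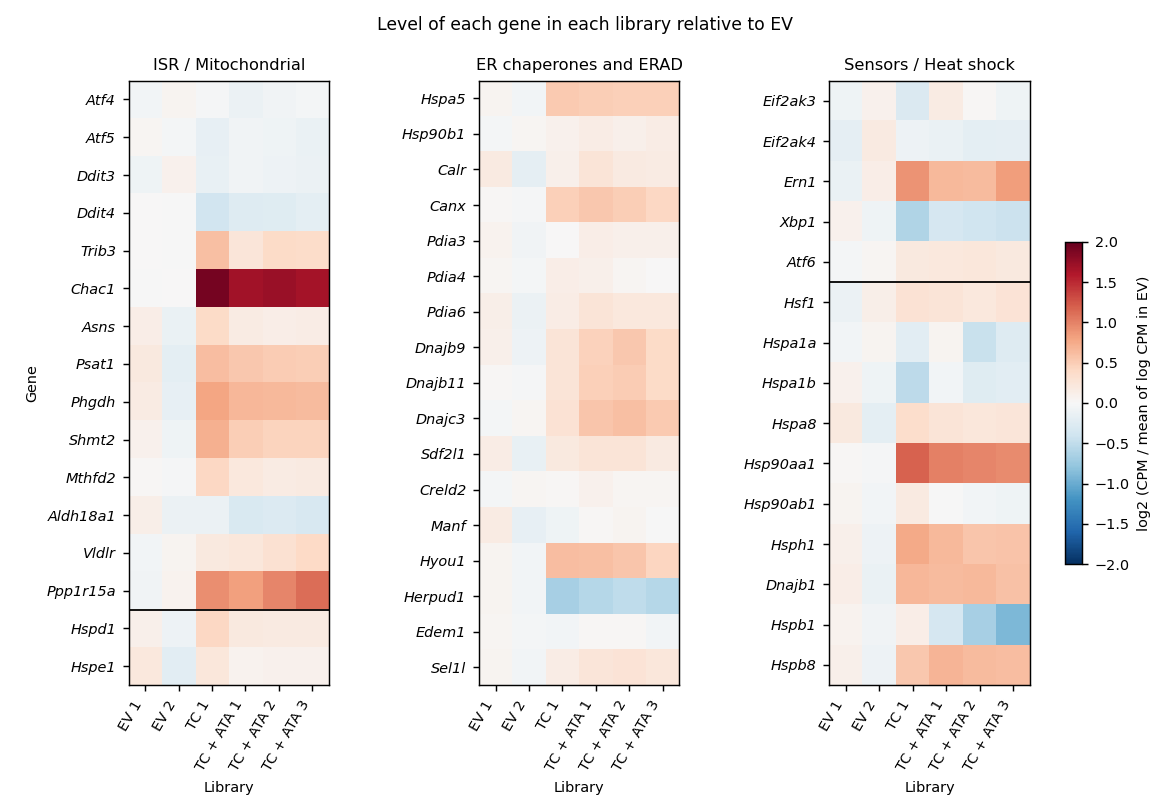
Log2 level of each of the 48 genes (rows) in each of the 6 libraries (columns) relative to the mean of the log2 values of the EV libraries, with red for higher and blue for lower and a black line between the groups of genes that share a panel. Chac1, Hsp90aa1, Ppp1r15a and Ern1 are red and Herpud1 and Xbp1 blue in all libraries with the fusion, and Hspb1 is blue in the TC + ATA libraries.

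Seen library by library, the groups of genes moved by different amounts relative to the EV mean. The median log2 level of the ISR genes was 0.40 above the EV mean in TC and 0.22, 0.23 and 0.28 above it in the TC + ATA libraries. That of the ER genes was 0.14 above it in TC and 0.25, 0.21 and 0.18 above it in TC + ATA. For the heat shock genes the values were 0.33 in TC and 0.26, 0.22 and 0.25 in TC + ATA, and for the mitochondrial genes 0.32 in TC and 0.14, 0.14 and 0.13 in TC + ATA. The EV libraries themselves lay 0.02, 0.06, 0.08 and 0.15 above and below their mean in these groups, in the same order, EV 1 being above. The 5 sensors and effectors had medians of −0.11 in TC and of 0.16, 0.02 and −0.09 in TC + ATA, with EV 1 at −0.08 and EV 2 at 0.08, so that TC + ATA lay on both sides of the EV mean. The TC + ATA medians thus lay below the TC median in the ISR, heat shock and mitochondrial groups and above it in the ER and sensor groups, and over all genes tested the median of no library was further than 0.02 from that of EV.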

How the data were processed

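NIH3T3 RNA was measured in 6 libraries (EV 2, TC 1, TC + ATA 3), grouped by the sample labels. The authors prepared poly(A) libraries, aligned paired-end reads to GRCm38.p6 with HISAT2 (2.2.1 per the labels) and deposited raw featureCounts counts per gene. The annotation release and the use of strand are not given in the sources used here.

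The counts were fitted in R 4.3.3 with edgeR 4.0.16 (TMM, filterByExpr, glmQLFit, glmQLFTest, all libraries in 1 fit, Benjamini-Hochberg over 18539 genes), and a call is an adjusted p of at most 0.05. Intervals are at 95% and use the SE derived from the F statistic and the total degrees of freedom, which include those drawn from all genes. DESeq2 1.42.0, only the groups compared, other scalings and filters, a replicate block, the study's fold limit of 2 and each EV and TC + ATA library left out were alternatives. When 1 EV library was left out, the lone libraries were assumed to vary like the TC + ATA libraries.

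Gene positions and exon lengths came from GENCODE M21 and promoters from RefSeq (GRCm38.p6), neither necessarily the authors' annotation. The 48 genes and all other lists were chosen with earlier results of these data known. Named were all of the 48, with each library's value for called genes, sensors and main factors, and up to 3 called genes with the largest change of each other list. Totals ran from 58471484 to 74413193 counts, so the number of libraries, not counting error, limits the precision.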

Additional observations from a re-analysis of the deposited data

How the results depend on the processing

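TC has 1 library and EV has 2, so the counts of called genes moved with the spread that each fit used. The counts over all genes moved as well, so these shifts are not particular to the 48 genes. In TC + ATA vs EV, 6789 of 18539 genes were called in the main fit. Without TC + ATA replicate 3, 5010 of 18339 genes were. In TC vs EV, edgeR with only those 2 groups called 11 of the 48 genes higher in place of 19, DESeq2 with only those groups called 2 lower in place of 4, and leaving out 1 library in turn gave 15 to 30 higher (30 without EV replicate 1) and 4 to 8 lower (8 without EV replicate 1, 7 without EV replicate 2). In TC + ATA vs TC, where none was called, fits of only those 2 groups gave 6 higher and 14 lower with edgeR and 6 and 14 with DESeq2, and leaving out 1 library gave 0 to 6 higher and 0 to 15 lower. The calls arose without EV replicate 1 (4 higher and 15 lower) or EV replicate 2 (6 and 14), where by construction EV adds nothing to the spread. In TC + ATA vs EV, 5 genes were lower, against 8 with scaling by library size only and 2 to 10 with 1 library left out (8 without EV replicate 1, 10 without EV replicate 2, 3 without TC + ATA replicate 1 or 3, 2 without TC + ATA replicate 2). The counts higher than EV in TC + ATA went from 17 to 30 with 1 library left out. With the log2 fold change limit of 2, 0 genes were called in any comparison. Scaling by library size shifted the median of all genes by −0.11 in TC vs EV.

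The labels give the replicate numbers 1 and 2 in both EV and TC + ATA, and 1 in TC. Deviations from the group means over genes correlated at −0.03 for number 1 and −0.15 for number 2. With 2 EV libraries these deviations mirror each other, so each TC + ATA library gives 1 independent value, and the number of TC could not be checked. Nothing here shows that the numbers pair the libraries, and they were not used as pairs. A replicate block left 11 genes called higher in TC vs EV and 2 lower in TC + ATA vs EV. Over all 18539 genes tested, the block left 3184 calls in place of 5191 in TC vs EV. In TC + ATA vs EV it left 4645 in place of 6789.

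In TC vs EV 13 of 23 called genes kept their call under all 14 alternatives, and in TC + ATA vs EV 19 of 27. Over the 48 genes and 3 comparisons, 21 of 144 fold changes took the opposite sign under at least 1 alternative, and 0 of these were called as reported. Among them were, with the block, Atf4 in TC vs EV (0.019 from −0.02) and, in TC + ATA vs TC, Psat1 (0.015) and Atf6 (−0.0010), and with library size only Eif2ak3 in TC + ATA vs EV (−0.057). With 1 library left out, Atf4 in TC vs EV ran from −0.085 to 0.029, Eif2ak4 from −0.30 to 0.063 in TC vs EV and from −0.35 to 0.018 in TC + ATA vs EV, and Eif2ak3 in TC + ATA vs EV from −0.058 to 0.12. The cause was not tested.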
